A study of Homo sapiens with 8 samples.

Results

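The HOX cluster genes examined here are 38 listed members of the 4 human HOX clusters: 10 HOXA genes on chromosome 7, 10 HOXB genes on chromosome 17, 9 HOXC genes on chromosome 12 and 9 HOXD genes on chromosome 2. Their open chromatin was read by ATAC-seq, which uses a transposase to cut and tag accessible DNA, in A2780, an established ovarian cancer cell line. The groups were A2780 cells resistant to cisplatin and paclitaxel together (dual-resistant), to cisplatin, or to paclitaxel, and the control A2780 cells, all labelled WT in genotype, with 2 libraries each and 8 in all. Cisplatin crosslinks DNA and paclitaxel stabilises microtubules. The resistant groups' labels name the drug as a treatment, with no dose or time. The labels do not call a group's libraries separate cultures, so p-values rest only on spread between libraries, which may be technical. That spread is estimated mostly over all peaks and groups, not from the libraries of the groups compared alone. Each resistant line is 1 line, so a difference belongs to that line and is not a replicated effect of the drug.

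Members were all consensus peaks overlapping a gene span extended by 1 kb on both sides. This gave 135 distinct peaks of 159451 in the matrix, 20 in HOXA, 47 in HOXB, 40 in HOXC and 28 in HOXD, and all 135 passed the filter on low values. HOXA2 and HOXD4 overlapped no peak, and 25 of the peaks were shared by more than 1 gene. Reads in peaks ranged from 7693492 to 9304798 per library, and 3 reads, the upper limit for a peak with none, are worth 0.322 to 0.390 CPM (counting error only). Of the ovarian cancer markers, 11 of 12 had a gene peak, MUC16 had none, and PAX8 was weak, with 1.11 and 2.26 CPM in dual-resistant cells, 4.28 and 3.74 in cisplatin-resistant cells, 0.486 and 0.787 in paclitaxel-resistant and 0.780 and 1.29 in control libraries. Of the other cell types' markers, the 5 fibroblast genes summed to 49.0 to 49.2 CPM in dual-resistant cells, 67.1 to 70.0 in cisplatin-resistant cells, 62.6 to 65.2 in paclitaxel-resistant and 34.9 to 38.9 in control libraries, with 1 higher and 0 lower, 2 higher and 2 lower, and 2 higher and 0 lower against control in the 3 lines. The ovarian genes summed to 106 to 110, 111 to 124, 98.1 to 101 and 111 to 116 CPM in the same order of groups, with 1 higher and 1 lower, 4 and 1, and 0 and 3 against control. The 3 endothelial genes summed to 22.4 to 27.6, 35.5 to 39.4, 17.2 to 17.98 and 15.9 to 19.6 CPM in the same order of groups. The 4 haematopoietic genes, of which PTPRC had no peak, summed to 33.7 to 34.4, 31.1 to 38.4, 40.4 to 45.1 and 30.6 to 39.4 CPM. Among 16079 gene start peaks 4.76% were higher and 15.1% lower, 10.9% and 29.0%, and 13.1% and 9.89% in the 3 lines. The part of these differences in the HOX results was not tested.

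HOX genes encode homeodomain transcription factors that set position along the body axis. Within a cluster they lie in order, from paralog group 1 at one end to group 13 at the other, and in embryos the group 1 end acts early and towards the head while the group 13 end acts late and towards the tail. Polycomb complexes keep the clusters shut and trithorax (MLL, KMT2A) complexes and retinoic acid receptors open them. In mouse limbs the HOXD cluster is flanked by large gene-poor landscapes that hold its enhancers, one beyond each end. In the female reproductive tract, HOXA9, HOXA10, HOXA11 and HOXA13 mark successive segments.

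The promoters shown are those whose 250 bases before the RefSeq start (GRCh38.p14) lie wholly within a member peak that was higher in a resistant line than in control, because they are the HOX promoters in peaks that rose. There were 4 of them, among 19 HOX genes with a promoter entry. The set was chosen after the values and sequences were seen. Capitals mark matches on either strand to the TATA motif TATAAA, the CCAAT box, the GC box GGGCGG, the AP-1 motif TGANTCA, the HOX composite motif TGATTNAT or the E-box CACGTG. The HOXD10 stretch lies at chr2:176116528-176116777 and the HOXD1 stretch at chr2:176188418-176188667, both on the plus strand. The HOXA4 stretch lies at chr7:27130758-27131007 and the HOXA10 stretch at chr7:27179862-27180111, both on the minus strand.
HOXD10: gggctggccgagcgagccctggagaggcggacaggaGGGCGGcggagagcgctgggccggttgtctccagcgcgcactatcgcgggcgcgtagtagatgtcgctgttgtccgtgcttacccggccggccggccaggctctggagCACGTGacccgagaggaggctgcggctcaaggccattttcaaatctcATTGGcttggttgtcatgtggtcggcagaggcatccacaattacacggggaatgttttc
HOXD1: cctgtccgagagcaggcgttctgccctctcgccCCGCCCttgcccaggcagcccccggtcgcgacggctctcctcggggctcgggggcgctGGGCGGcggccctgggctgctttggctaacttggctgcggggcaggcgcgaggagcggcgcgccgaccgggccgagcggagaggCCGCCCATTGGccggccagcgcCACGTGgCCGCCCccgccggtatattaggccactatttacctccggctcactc
HOXA4: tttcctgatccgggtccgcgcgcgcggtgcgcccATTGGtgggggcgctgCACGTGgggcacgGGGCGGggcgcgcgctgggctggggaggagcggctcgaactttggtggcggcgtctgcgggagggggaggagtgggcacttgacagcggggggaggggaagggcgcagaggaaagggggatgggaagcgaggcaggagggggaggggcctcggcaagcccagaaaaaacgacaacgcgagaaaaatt
HOXA10: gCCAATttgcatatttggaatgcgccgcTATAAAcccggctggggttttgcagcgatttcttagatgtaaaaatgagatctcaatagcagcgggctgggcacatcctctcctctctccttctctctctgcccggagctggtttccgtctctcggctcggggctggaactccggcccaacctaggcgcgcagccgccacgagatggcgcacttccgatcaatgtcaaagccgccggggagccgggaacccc

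CACGTG stood once each in the HOXD10, HOXD1 and HOXA4 stretches and not in that of HOXA10, and it was found in 6.32% of 34943 RefSeq promoter stretches of the same length. CCAAT stood once in all 4, against 32.0% of all stretches, and in HOXD1 it adjoins a GC box match. GGGCGG stood 4 times in HOXD1 and once each in HOXD10 and HOXA4, against 42.5% of all stretches holding it. TATAAA was found in HOXA10 alone among the 4 and in 10.8% of all. TGANTCA (6.59% of all) and TGATTNAT (2.49%) were not found in the 4. The stretches held 64.0%, 74.8%, 70.0% and 58.8% G and C in HOXD10, HOXD1, HOXA4 and HOXA10, against a median of 58.0% over all stretches.

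The clusters also hold microRNAs, shown because peaks over or beside them changed. Capitals mark the seed, bases 2 to 8 of the mature RNA (RefSeq, GRCh38.p14). The pair from MIR615 lies within HOXC5 and each has a seed of its own. miR-196a-5p (MIR196A2 in HOXC, MIR196A1 in HOXB) and miR-196b-5p (MIR196B in HOXA) share 1 seed.
miR-615-5p: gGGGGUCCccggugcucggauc
miR-615-3p: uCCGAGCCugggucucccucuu
miR-196a-5p: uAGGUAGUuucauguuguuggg
miR-196b-5p: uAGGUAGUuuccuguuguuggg

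The first question was whether the clusters moved together in a resistant line. They did not: in dual-resistant cells HOXD rose while HOXA, HOXB and, by less, HOXC fell. In cisplatin-resistant cells HOXA, HOXC and HOXD fell, and HOXB passed the test only narrowly. In paclitaxel-resistant cells HOXD fell, and the other 3 sums did not pass the test on the values as deposited but passed it, in directions that differed, under other scalings given below. Each cluster was summed over all peaks from its first to its last listed gene (23 in HOXA, 61 in HOXB, 52 in HOXC and 39 in HOXD) and tested beside 100 kb windows of the genome with limma (n = 2 libraries a group, Benjamini-Hochberg adjusted over 15720 rows). Of these rows, 23.8% were higher and 16.3% lower in dual-resistant cells than in control, 32.5% and 34.5% in cisplatin-resistant cells, and 17.0% and 30.1% in paclitaxel-resistant cells. The 3 comparisons share the 2 control libraries.

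HOXD summed to 257 and 269 CPM in dual-resistant cells, 96.1 and 98.8 in cisplatin-resistant cells, 110 and 105 in paclitaxel-resistant and 169 and 156 in control libraries. No dual-resistant library overlapped any other group, and the log2 difference from control was 0.70 (SE 0.060, adjusted p = 3.66e-12) in dual-resistant cells. It was -0.73 (SE 0.060, adjusted p = 7.39e-13) in cisplatin-resistant and -0.59 (SE 0.060, adjusted p = 2.26e-10) in paclitaxel-resistant cells. HOXC, the most accessible cluster at 4.13 CPM per kb in dual-resistant cells, 3.25 in cisplatin-resistant cells, 4.66 in paclitaxel-resistant and 4.65 in control cells, summed to 478 and 507, 392 and 383, 565 and 547, and 559 and 551 CPM in the same order of groups. Its differences from control were -0.17 (adjusted p = 0.000339), -0.52 (adjusted p = 2.83e-14) and 0.00 (adjusted p = 0.965). The fall in dual-resistant cells did not pass the test with quantile scaling (-0.00, adjusted p = 0.931). In paclitaxel-resistant cells the HOXC sum was lower with quantile scaling (-0.12, adjusted p = 0.00464). It was higher with median-ratio scaling (0.17, adjusted p = 0.000450), edgeR (0.10, adjusted p = 0.0320) and each library's median over the fixed 5 Mb genome block holding HOXC subtracted (0.11, adjusted p = 0.0264).

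HOXB summed to 273 and 306 CPM in dual-resistant cells, 355 and 342 in cisplatin-resistant cells, 374 and 366 in paclitaxel-resistant and 373 and 379 in control libraries. The difference was -0.38 in dual-resistant (SE 0.046, adjusted p = 1.10e-08), -0.11 in cisplatin-resistant (adjusted p = 0.0358) and -0.02 in paclitaxel-resistant cells (adjusted p = 0.695), the last being higher than control with median-ratio scaling (0.15, adjusted p = 0.0107) and with the regional median subtracted (0.16, adjusted p = 0.00525). The HOXB call in cisplatin-resistant cells was lost under several other settings, including without control library 1 (-0.12, adjusted p = 0.0819), without control library 2 (-0.10, adjusted p = 0.152) and without cisplatin-resistant library 2 (-0.08, adjusted p = 0.194), and its direction flipped with median-ratio scaling. HOXA, the least accessible cluster in control cells, summed to 69.9 and 77.4, 80.7 and 65.9, 107 and 112, and 97.1 and 115 CPM in the same order of groups. Its difference was -0.52 (SE 0.087, adjusted p = 6.09e-06) in dual-resistant cells, -0.53 (SE 0.087, adjusted p = 1.74e-06) in cisplatin-resistant and 0.05 (SE 0.087, adjusted p = 0.641) in paclitaxel-resistant cells. In the last it was higher with median-ratio scaling (0.22, adjusted p = 0.0336) and lower with the regional median subtracted (-0.48, adjusted p = 2.11e-05).

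**Figure D1:**
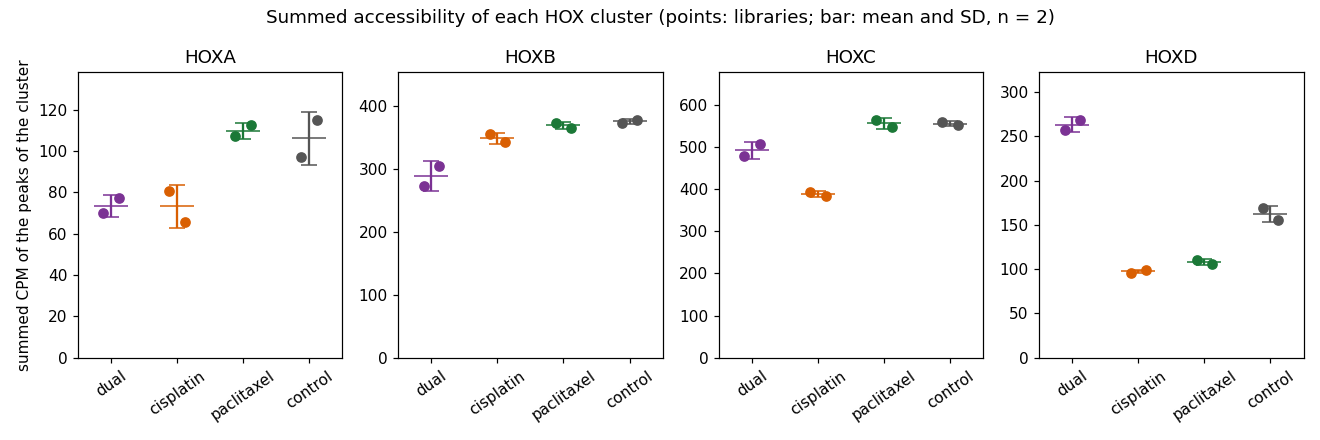
Summed CPM of all peaks of each HOX cluster (vertical axis) by group (horizontal axis); points are the 2 libraries, the horizontal line is their mean and the error bar the SD (n = 2). HOXD stands above all other groups in dual-resistant libraries (257 and 269 CPM) and below control in the other resistant lines.

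Peak by peak, 19 of the 135 HOX peaks were higher and 21 lower in dual-resistant cells than in control, or 14.1% and 15.6%, against 8.11% higher and 5.39% lower among all 158698 tested peaks (limma, adjusted p under 0.05). The 19 higher peaks were 13 of 28 in HOXD, 5 of 40 in HOXC, 1 of 47 in HOXB and 0 of 20 in HOXA. The 21 lower ones were 0, 6, 9 and 6 in the same order of clusters. The median log2 difference was 1.08 in HOXD, -0.09 in HOXC, -0.51 in HOXB and -0.63 in HOXA, against 0.08 over all tested peaks. In cisplatin-resistant cells 3 peaks were higher and 37 lower (2.22% and 27.4%, against 18.3% and 14.9% of all peaks). HOXA had 1 higher and 7 lower, HOXB 1 and 2, HOXC 1 and 14, and HOXD 0 and 14. In paclitaxel-resistant cells 9 were higher and 6 lower (6.67% and 4.44%, against 7.26% and 9.17% of all peaks), a higher share close to the background and a lower share below it. There 6 of the 9 were in HOXC and 5 of the 6 in HOXD. Under other scalings that split was 14 higher and 3 lower (median-ratio), 13 and 3 (edgeR) and 9 and 2 (DESeq2), and that of dual-resistant cells was 8 and 23 after subtracting each library's regional median.

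The counts rest on few libraries, and calls over all tested peaks fell too when a library of the groups compared was left out. In dual-resistant cells they were 8 higher and 5 lower without dual-resistant library 1, 12 and 12 without dual-resistant library 2, and 12 and 8 without either control library. In cisplatin-resistant cells the 3 higher peaks were 1 without either cisplatin-resistant library or control library 2. In paclitaxel-resistant cells the counts were 4 higher and 2 lower without control library 1, and the lower count was 3 without paclitaxel-resistant library 2 and the higher count 6 without paclitaxel-resistant library 1.

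**Figure D2:**
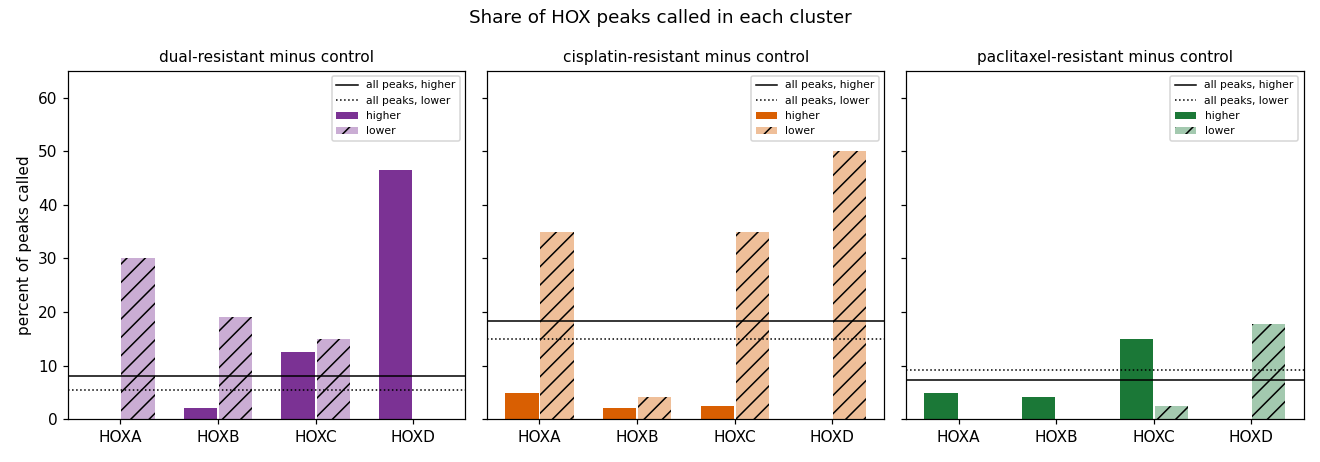
Percent of the peaks of each HOX cluster called higher (solid bars) or lower (hatched bars) than control at an adjusted p under 0.05, in each resistant line; the solid and dotted lines give the percent of all tested peaks called higher and lower. The HOXD bars run in opposite directions in dual-resistant (46.4% higher) and cisplatin-resistant cells (50% lower).

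**Figure D3:**
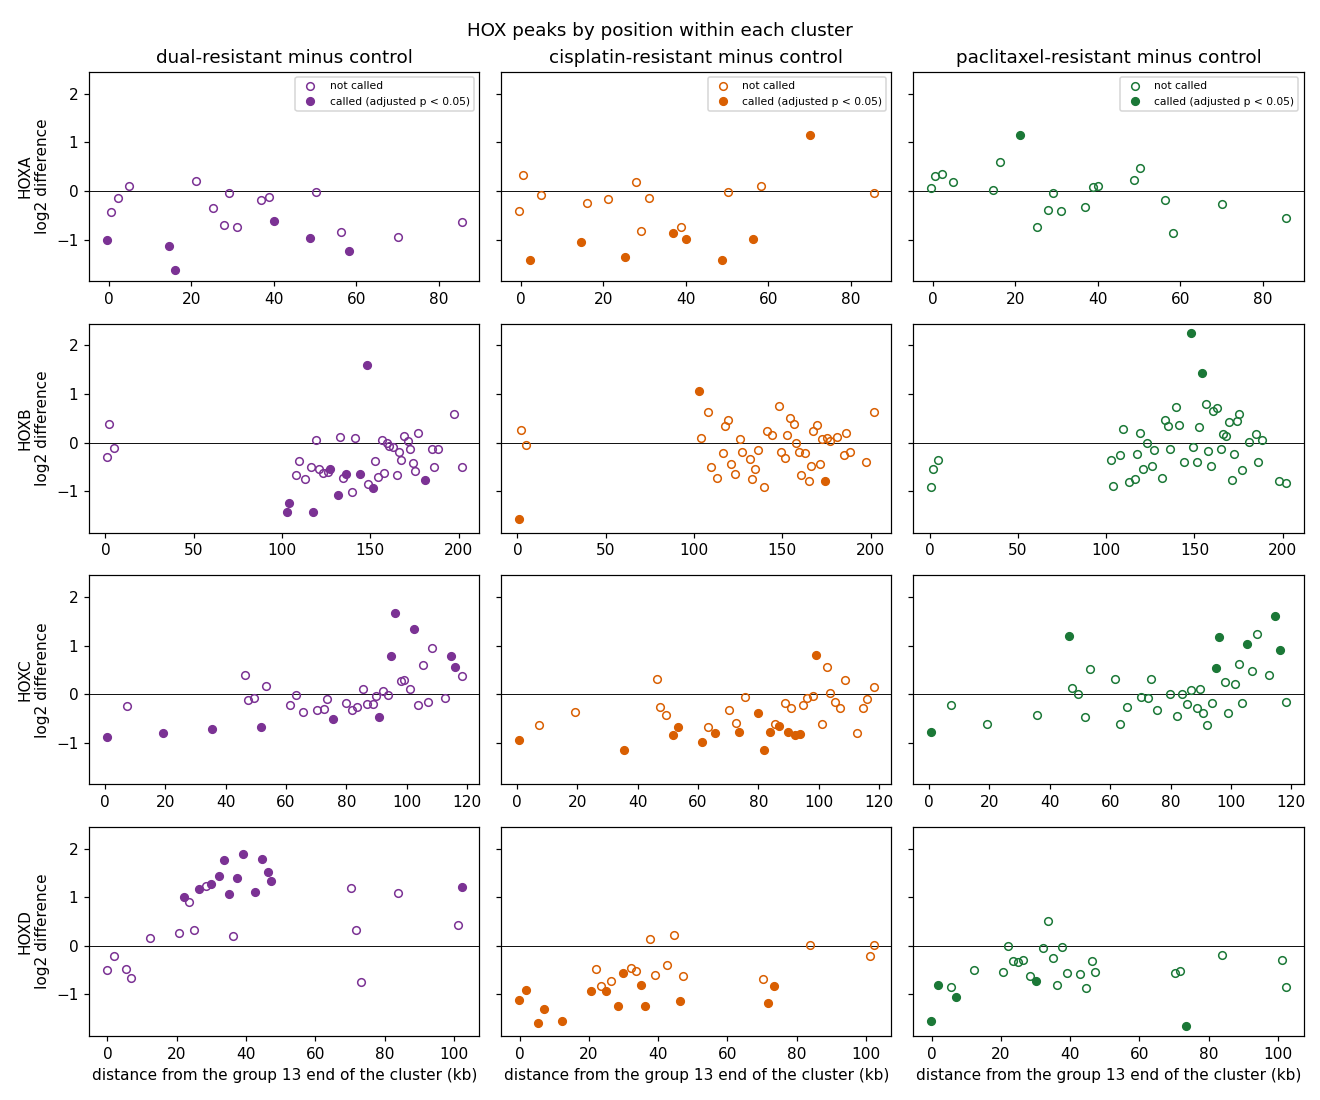
Log2 difference from control of each HOX member peak (vertical axis) against its distance in kb from the group 13 end of its cluster (horizontal axis), with 1 row of panels per cluster and 1 column per resistant line; filled points were called. In dual-resistant cells the HOXD peaks called higher lie in the HOXD11 to HOXD8 stretch (12) and at HOXD1 (1), and the 5 HOXC peaks called higher lie at the HOXC4 end.

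Along HOXD, the rise in dual-resistant cells was uneven. Of 17 peaks from HOXD11 to HOXD8, a stretch chosen after its values were seen, 12 were higher and 0 lower, and all 17 lay above 0 (median log2 difference 1.24, range 0.19 to 1.88). Of the 5 peaks of HOXD13 and HOXD12, 0 were called and the median was -0.48. HOXD3 had 0 of 4 called and HOXD1 had 1 of 2 higher. With DESeq2, 5 of the 28 HOXD peaks were higher and 0 lower, against 13 and 0 with limma. HOXD8 to HOXD11 encode factors of the middle and posterior paralog groups, and HOXD13 the factor of digits and the genital bud.

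The peak over the HOXD10 start, whose promoter is printed above, had 22.1 and 23.9 CPM in dual-resistant cells, 5.40 and 6.78 in cisplatin-resistant cells, 6.07 and 4.72 in paclitaxel-resistant and 9.88 and 8.50 in control libraries. It is the strongest HOXD peak of dual-resistant cells, and their libraries lay above those of all other groups. The log2 difference from control was 1.28 in dual-resistant cells (SE 0.21, adjusted p = 1.43e-06), -0.56 in cisplatin-resistant cells (adjusted p = 0.0341) and -0.72 in paclitaxel-resistant cells (adjusted p = 0.00990). The last call was lost without control library 1 (-0.62, adjusted p = 0.122), without paclitaxel-resistant library 2 (-0.56, adjusted p = 0.152) and with edgeR (-0.61, adjusted p = 0.0762).

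The HOXD9 peak at chr2:176125128-176126128 had 10.1 and 11.1 CPM in dual-resistant cells, 1.35 and 1.64 in cisplatin-resistant cells, 1.34 and 1.80 in paclitaxel-resistant and 2.73 and 2.32 in control libraries. Its log2 difference from control, 1.88 (SE 0.35, adjusted p = 1.57e-05), was the highest of the HOXD member peaks in dual-resistant cells. The HOXD8 start peak had 11.9 and 11.5 CPM in dual-resistant cells, 3.71 and 3.86 in cisplatin-resistant cells, 3.28 and 3.26 in paclitaxel-resistant and 6.76 and 3.86 in control libraries. The difference in dual-resistant cells was 1.11 (SE 0.27, adjusted p = 0.00168), and without control library 2 it was 0.75 (adjusted p = 0.144). The HOXD1 peak over the printed promoter had 8.66 and 6.66, 2.03 and 4.44, 1.34 and 1.57, and 3.51 and 2.57 CPM in the same order of groups, with a difference of 1.21 (SE 0.34, adjusted p = 0.00793) in dual-resistant cells.

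**Figure D4:**
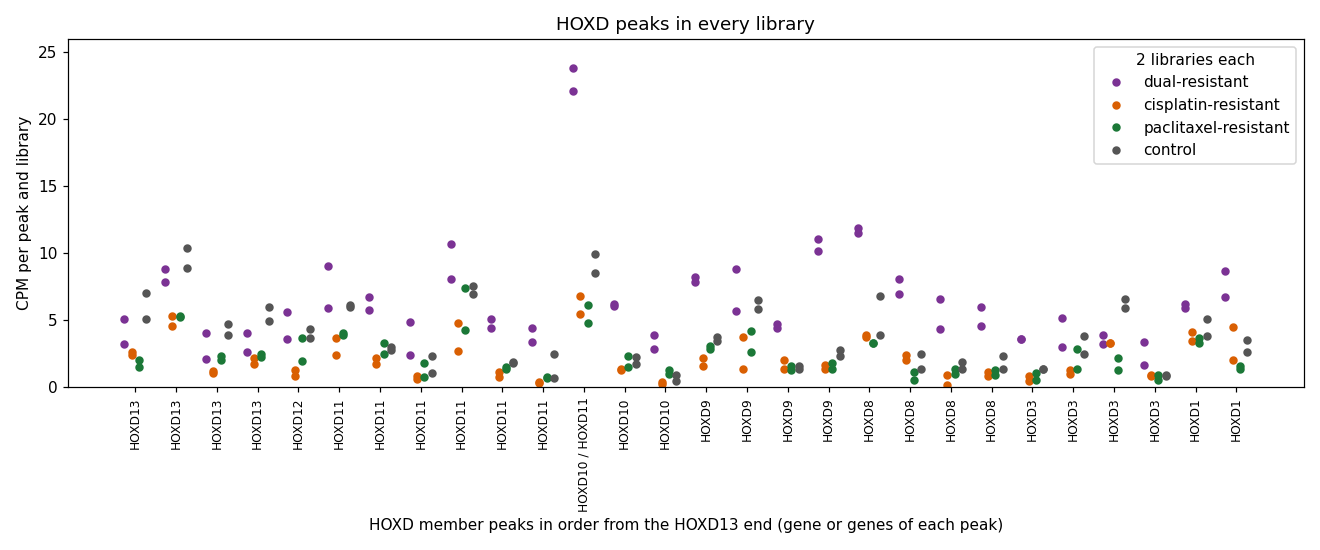
CPM (vertical axis) of each of the 28 HOXD member peaks in order from the HOXD13 end (horizontal axis, named by gene), with 1 point per library and groups from left to right within each peak as in the legend. Over the HOXD10 start the dual-resistant libraries (22.1 and 23.9 CPM) stand above the others, whereas at the HOXD13 start the control libraries (5.98 and 4.89 CPM) stand highest.

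The rise in dual-resistant cells was not confined to the HOXD cluster. Within 1 Mb outside it, 50 of 91 tested peaks (54.9%) were higher and 2 lower, with a median log2 difference of 1.21, so the flanks changed by as much as the HOXD members (median 1.08). The gain lay mostly on 1 side, a division into sides and distances made after the values were seen. Beyond the HOXD1 end, 48 of 72 peaks within 1 Mb were higher and 0 lower, against 2 higher and 2 lower of 19 beyond the HOXD13 end. By distance, 0 of 4 peaks were called within 250 kb of the HOXD1 end, 13 of 21 were higher from 250 to 500 kb, 7 of 10 from 500 to 750 kb and 28 of 37 from 750 to 1000 kb. Farther out, 6 of 39 were higher and 3 lower from 1000 to 1250 kb, 19 of 31 were higher and 1 lower from 1250 to 1500 kb, 6 of 10 were higher from 1500 to 1750 kb, and 0 of 6 were called from 1750 to 2000 kb. In paclitaxel-resistant cells 23 of 31 and 7 of 10 peaks were also higher from 1250 to 1500 and from 1500 to 1750 kb, so the gain at those distances was found in both lines, against 3 of 72 within 1 Mb of the HOXD1 end in paclitaxel-resistant cells. Of 5 gene start peaks within 1 Mb, 0 were higher and 2 lower, against 50 higher and 0 lower of the other 86. These start peaks lay beyond the HOXD13 end or within 250 kb of the HOXD1 end, where 0 of 4 peaks were called. With no start peak in the stretch that gained most, start peaks and other peaks cannot be compared there.

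Each library's median over the fixed 5 Mb genome block that holds HOXD was then taken away. The HOXD sum in dual-resistant cells then differed from control by 0.04 (adjusted p = 0.687), and HOXD peaks were 3 higher and 5 lower in place of 13 and 0. Among the named peaks the HOXD9 peak kept a difference of 1.22 (adjusted p = 0.00900) and the HOXD10 start 0.62 (adjusted p = 0.0414), and HOXD8 had 0.45 (adjusted p = 0.321). Relative to the median of that block, therefore, HOXD as a whole was not called higher. The block is not centred on HOXD and reaches farther past the HOXD1 end, where most of the flank gain lay, than past the HOXD13 end. CPM over a region also scale with its number of DNA copies, and copy number was not tested. Of 4 genes listed beside HOXD, 0 start peaks were higher and 2 lower in dual-resistant cells. None of them lay in the flank stretch with most of the gain, so they cannot show whether starts there rose. EVX2 is a homeobox gene beside HOXD13. Its start peak had 1.98 and 4.30 CPM in dual-resistant and 6.63 and 6.05 in control libraries (log2 difference -0.99, adjusted p = 0.0416). MTX2 is a mitochondrial import gene beyond HOXD1. Its start peak had 29.6 and 29.6 CPM in dual-resistant and 26.1 and 27.2 in control libraries (0.15, adjusted p = 0.536). Of the 28 HOXD consensus peaks, 26 carry the name of a peak called in a dual-resistant library, against 2 of 20 in HOXA, 9 of 47 in HOXB and 8 of 40 in HOXC and 39.5% of all peaks in the matrix. None of the 135 HOX peaks carries the name of a control library, as 3.18% of all peaks do. The part of this in the HOX results was not tested.

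**Figure D5:**
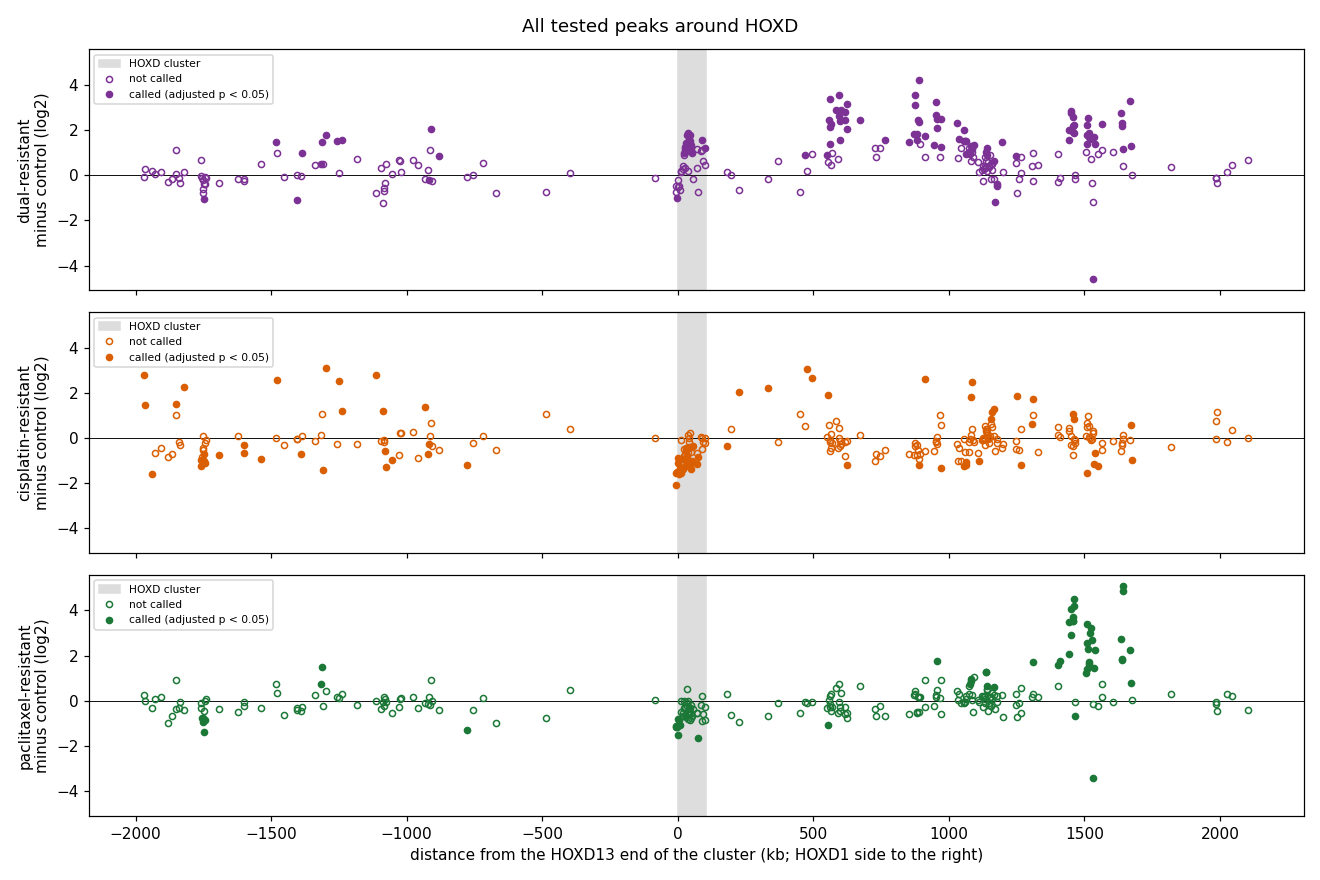
Log2 difference from control (vertical axis) of all tested peaks within 2000 kb of HOXD against distance in kb from the HOXD13 end (horizontal axis), with 1 panel per resistant line; the grey band is the cluster and filled points were called. In dual-resistant cells called gains lie in the cluster and in the flank beyond HOXD1 (48 of 72 peaks within 1 Mb), with 2 of 19 within 1 Mb beyond HOXD13.

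In cisplatin-resistant cells the HOXD fall was strongest at the HOXD13 end. All 5 peaks of HOXD13 and HOXD12 were lower (median -1.31), as were 7 of 17 from HOXD11 to HOXD8 (median -0.62), 2 of 4 at HOXD3 and 0 of 2 at HOXD1. The fall ran past that end: the 3 peaks next outside HOXD13, given from the farthest to the nearest, were all lower in cisplatin-resistant cells (-2.09, -1.54 and -1.52) and in paclitaxel-resistant cells (-1.14, -1.15 and -1.15). The nearest of them is the EVX2 start peak, with 1.69 and 2.10 CPM in cisplatin-resistant cells, 2.19 and 3.03 in paclitaxel-resistant and 6.63 and 6.05 in control libraries (adjusted p = 0.000227 and 0.0112). Within 1 Mb around the cluster 9 peaks were higher and 13 lower of 91 (median -0.24), and after the regional subtraction 0 HOXD peaks were higher and 9 lower. The HOXD12 start peak had 1.24 and 0.819 CPM in cisplatin-resistant and 4.29 and 3.60 in control libraries, groups that did not overlap (log2 difference -1.55, SE 0.37, adjusted p = 0.000377). It had 3.59 and 5.59 CPM in dual-resistant libraries (0.17, adjusted p = 0.831) and 3.64 and 1.91 in paclitaxel-resistant libraries (-0.49, adjusted p = 0.414).

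The HOXD13 start peak had 1.69 and 2.10 CPM in cisplatin-resistant and 5.98 and 4.89 in control libraries (-1.31, SE 0.35, adjusted p = 0.00161). It had 2.43 and 2.25 CPM in paclitaxel-resistant libraries (-1.06, SE 0.35, adjusted p = 0.0223). That call was lost when any of the 4 libraries compared was left out, with adjusted p of 0.180 and 0.0605 without control libraries 1 and 2 and 0.0737 and 0.105 without paclitaxel-resistant libraries 1 and 2. Another HOXD13 peak, at chr2:176091450-176092450, had 1.01 and 1.17 CPM in cisplatin-resistant and 4.68 and 3.86 in control libraries (-1.58, adjusted p = 0.000511). In paclitaxel-resistant cells 3 of the 5 HOXD13 and HOXD12 peaks were lower and 1 of 17 from HOXD11 to HOXD8. The largest fall there was a HOXD3 peak at chr2:176159320-176160320, with 1.21 and 2.14 CPM in paclitaxel-resistant and 5.85 and 6.56 in control libraries (-1.66, SE 0.33, adjusted p = 5.05e-05). HOXD9 at chr2:176122151-176123151 had 1.35 and 3.74 CPM in cisplatin-resistant and 6.50 and 5.79 in control libraries (-1.24, adjusted p = 0.000810), or -0.65 (adjusted p = 0.168) without cisplatin-resistant library 1. HOXD3 at chr2:176157646-176158646 had 1.24 and 0.935 against 3.77 and 2.45 CPM (-1.17, adjusted p = 0.0143), a call lost without control library 1 (-0.90, adjusted p = 0.178) and without cisplatin-resistant library 2 (-1.03, adjusted p = 0.0943).

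HOXB lost accessibility in dual-resistant cells at the group 3 to 9 genes. By start peak, 7 of 10 HOXB genes were lower (HOXB3 to HOXB9) and 0 higher, with a median log2 difference of -0.64, against 15.1% lower and 4.76% higher among 16079 gene start peaks and a median of -0.14 over all genes. HOXB7 and HOXB8 share 1 of these peaks. All HOXB genes but HOXB1 were read at their strongest peak, which need not lie at the start. HOXB4 and HOXB3 are known in blood stem cells, and HOXB5 to HOXB9 in trunk patterning. The strongest HOXB3 peak, inside its span at chr17:48585199-48586199, is also the strongest HOXB member peak. It had 14.8 and 15.6 CPM in dual-resistant cells, 27.7 and 25.96 in cisplatin-resistant cells, 19.4 and 16.6 in paclitaxel-resistant and 27.3 and 21.0 in control libraries. The dual-resistant libraries were the lowest, and the difference from control was -0.64 (SE 0.15, adjusted p = 0.00110).

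The peak shared by HOXB7 and HOXB8 had 1.98 and 1.40 CPM in dual-resistant cells, 7.32 and 6.43 in cisplatin-resistant cells, 4.13 and 4.72 in paclitaxel-resistant and 6.63 and 4.25 in control libraries (-1.42 in dual-resistant cells, SE 0.30, adjusted p = 0.000214). The dual-resistant libraries again lay below all others. A HOXB9 peak at chr17:48626331-48627331, over the end of the HOXB9 span nearer HOXB13, moved in opposite directions. It had 0.495 and 0.860 CPM in dual-resistant cells, 7.54 and 4.91 in cisplatin-resistant cells, 1.70 and 2.25 in paclitaxel-resistant and 3.38 and 2.06 in control libraries. The differences were -1.44 in dual-resistant (SE 0.39, adjusted p = 0.00508) and 1.07 in cisplatin-resistant cells (SE 0.39, adjusted p = 0.0257). The second of these fell to 0.65 (adjusted p = 0.227) after the regional subtraction, and was lost without control library 2 (0.77, adjusted p = 0.242) and without cisplatin-resistant library 1 (0.78, adjusted p = 0.284).

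The strongest HOXB9 peak, at chr17:48625125-48626125 inside the span, was taken as its start peak for want of a RefSeq start. It had 0.989 and 4.08 CPM in dual-resistant and 5.85 and 5.53 in control libraries (-1.24, adjusted p = 0.00543). This call rests on 1 library: without dual-resistant library 1 the difference was -0.43. Without control library 1 it was -1.21, and DESeq2 gave an adjusted p of 0.410. HOXB was little changed in cisplatin-resistant cells (1 peak higher and 2 lower), while of 285 flank peaks within 1 Mb 75 were higher and 9 lower (median 0.32). After the regional subtraction 0 HOXB peaks were higher and 20 lower there. The HOXB13 peak at chr17:48728454-48729454 had 1.24 and 0.935 CPM in cisplatin-resistant and 4.68 and 3.73 in control libraries (-1.57, SE 0.38, adjusted p = 0.000554).

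Of the HOXB peaks, 2 rose in paclitaxel-resistant cells, and 1 of them also in dual-resistant cells. That one lies in the HOXB3 span at chr17:48581297-48582297 and had 2.72 and 2.04 CPM in dual-resistant cells, 1.01 and 1.17 in cisplatin-resistant cells, 2.91 and 5.51 in paclitaxel-resistant and 0.390 and 0.515 in control libraries, the control values being near the level of 3 reads. The difference was 1.59 in dual-resistant (SE 0.43, adjusted p = 0.00540) and 2.25 in paclitaxel-resistant cells (SE 0.43, adjusted p = 2.26e-05). The other, shared by HOXB3 and HOXB4 at chr17:48574799-48575799, had 6.19 and 6.63 CPM in paclitaxel-resistant and 1.56 and 2.70 in control libraries (1.43, adjusted p = 0.00196).

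HOXC was divided into 3 stretches, set after their values were seen. Beyond the end of the HOXC6 span, 15 peaks belong to HOXC4, and some also to HOXC5. Here 5 were higher and 0 lower in dual-resistant cells and 5 higher and 0 lower in paclitaxel-resistant cells, against 1 and 1 in cisplatin-resistant cells. In the 16 peaks from HOXC13 to HOXC8, 0 were higher and 5 lower in dual-resistant cells, 0 and 7 in cisplatin-resistant and 1 and 1 in paclitaxel-resistant cells. In the 9 peaks of the span shared by HOXC4, HOXC5 and HOXC6, 0 were higher and 1 lower, 0 and 6, and 0 and 0 in the same order of lines. RefSeq spans of HOXC4, HOXC5 and HOXC6 overlap, so these peaks cannot be given to 1 gene.

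The strongest HOX peak, over the shared start of HOXC4, HOXC5 and HOXC6 at chr12:54017093-54018093, had 61.5 and 65.8 CPM in dual-resistant cells, 55.6 and 54.4 in cisplatin-resistant cells, 68.0 and 76.8 in paclitaxel-resistant and 73.3 and 71.3 in control libraries. The cisplatin-resistant libraries were the lowest, at -0.39 from control (SE 0.092, adjusted p = 0.000354), and the dual- and paclitaxel-resistant differences were -0.18 (adjusted p = 0.196) and -0.00 (adjusted p = 0.996). Next to it, chr12:54019305-54020305 had 5.51 and 5.61 CPM in cisplatin-resistant and 13.5 and 12.5 in control libraries (-1.15, SE 0.21, adjusted p = 5.33e-06). The HOXC10 start peak, the second of the strongest HOX start peaks, passed the test in none of the 3 comparisons, with 24.2 and 31.1, 25.2 and 24.4, 30.8 and 34.8, and 28.7 and 30.9 CPM in dual-, cisplatin-, paclitaxel-resistant and control libraries and log2 differences of -0.12, -0.26 and 0.14.

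The HOXC5 peak over MIR615, whose mature RNAs are printed above, at chr12:54033487-54034487, had 8.41 and 6.23 CPM in dual-resistant cells, 1.69 and 1.99 in cisplatin-resistant cells, 5.34 and 4.72 in paclitaxel-resistant and 3.12 and 1.16 in control libraries. It was higher in dual-resistant (1.66, SE 0.33, adjusted p = 7.74e-05) and paclitaxel-resistant cells (1.17, SE 0.33, adjusted p = 0.00690) and not called in cisplatin-resistant cells (-0.07, adjusted p = 0.898). The peak just before it had 28.9 and 36.0, 18.9 and 12.9, 27.8 and 26.1, and 15.5 and 21.9 CPM in the same order of groups (0.79, adjusted p = 3.55e-05, in dual-resistant and 0.54, adjusted p = 0.00705, in paclitaxel-resistant cells). At the far end of HOXC4, chr12:54051964-54052964 had 5.81 and 8.92 CPM in dual-resistant cells, 2.36 and 4.33 in cisplatin-resistant cells, 12.1 and 14.3 in paclitaxel-resistant and 4.94 and 3.22 in control libraries. Paclitaxel-resistant libraries stood highest (1.60, SE 0.27, adjusted p = 8.22e-07). HOXC4 at chr12:54036422-54037422 was the HOXC peak higher in cisplatin-resistant cells, with 7.32 and 11.3 against 5.59 and 4.51 CPM (0.80, adjusted p = 0.0128), or 0.50 (adjusted p = 0.285) without cisplatin-resistant library 2 and 0.66 (adjusted p = 0.122) without control library 2.

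The HOXC13 start peak was lower in all 3 lines, with 5.56 and 5.05 CPM in dual-resistant cells, 4.502 and 5.73 in cisplatin-resistant cells, 5.34 and 6.07 in paclitaxel-resistant and 12.5 and 8.24 in control libraries. HOXC13 is known for hair and nail keratin genes. The differences were -0.88 (adjusted p = 0.00977), -0.93 (adjusted p = 0.00215) and -0.78 (adjusted p = 0.0208), with SE 0.25 each, from the same control libraries. Control library 1 is the highest: without it the dual-resistant difference was -0.59 (adjusted p = 0.290) and the paclitaxel-resistant one -0.50 (adjusted p = 0.362). The dual-resistant call was also lost without dual-resistant library 2 (adjusted p = 0.0917), and the paclitaxel-resistant call without paclitaxel-resistant library 1 (adjusted p = 0.144) or 2 (adjusted p = 0.0533) and with edgeR (adjusted p = 0.0628).

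HOTAIR, a long noncoding RNA between HOXC12 and HOXC11, has been studied as a guide of Polycomb to HOXD. Of its 3 peaks, 2 were lower in dual-resistant, 3 in cisplatin-resistant and 1 in paclitaxel-resistant cells, and 0 were higher. The strongest of them, at chr12:53961124-53962124, lies just outside the HOTAIR span, is not a HOX member peak and was lower in all 3 lines. It had 8.41 and 6.45 CPM in dual-resistant cells, 6.08 and 5.03 in cisplatin-resistant cells, 6.07 and 8.09 in paclitaxel-resistant and 14.4 and 12.9 in control libraries. All 6 resistant libraries lay below both control libraries, by -0.84 (adjusted p = 0.00515), -1.23 (adjusted p = 6.93e-06) and -0.91 (adjusted p = 0.00170). Beside MIR196A2, the HOXC10 peak at chr12:53990743-53991743 had 3.71 and 5.50 CPM in cisplatin-resistant and 7.54 and 7.59 in control libraries (-0.68, adjusted p = 0.0168). It was not called in dual-resistant (0.17, adjusted p = 0.723) or paclitaxel-resistant cells (0.53, adjusted p = 0.119).

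HOXA fell in dual- and cisplatin-resistant cells. By position, with a shared peak counted at each of its genes, lower peaks in dual-resistant cells were 2 of 6 in paralog groups 1 to 4. They were 2 of 3 in groups 5 to 8 and 4 of 14 in groups 9 to 13 (medians -0.90, -0.97 and -0.39). In cisplatin-resistant cells 2, 2 and 5 were lower in the same order (medians -0.03, -0.99 and -0.57). The HOXA11 start peak, in a gene of the uterine segment, had 0.618 and 2.69 CPM in dual-resistant cells, 1.35 and 1.64 in cisplatin-resistant cells, 3.40 and 3.93 in paclitaxel-resistant and 3.64 and 3.60 in control libraries. The differences were -1.13 (adjusted p = 0.0416), -1.05 (adjusted p = 0.0304) and 0.01 (adjusted p = 0.989), SE 0.40 each. The dual-resistant call fails with edgeR (adjusted p = 0.0699) and DESeq2 (adjusted p = 0.218), and without dual-resistant library 1 the difference was -0.37 (adjusted p = 0.707). It was also lost without control library 1 (adjusted p = 0.168) or 2 (adjusted p = 0.154) and without paclitaxel-resistant library 1 (adjusted p = 0.0513) or 2 (adjusted p = 0.0530).

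The HOXA5 peak, shared with HOXA3, had 2.47 and 1.29 CPM in dual-resistant cells, 6.19 and 4.56 in cisplatin-resistant cells, 2.79 and 2.25 in paclitaxel-resistant and 5.46 and 4.51 in control libraries. Dual- and paclitaxel-resistant libraries lay below the others, with differences of -1.24 (SE 0.33, adjusted p = 0.00462) and -0.86 (adjusted p = 0.0637), and without dual-resistant library 2 or control library 1 the first had an adjusted p of 0.156 or 0.0834. HOXA13 at chr7:27198305-27199305 was the HOXA peak that fell most in cisplatin-resistant cells, with 1.35 and 0.585 CPM against 2.60 and 4.12 in control libraries (-1.42, SE 0.38, adjusted p = 0.00181). The adjusted p was 0.0690 without cisplatin-resistant library 2 and 0.0704 without control library 2.

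Among the HOXA start peaks, 1 rose in cisplatin-resistant and 1 in paclitaxel-resistant cells. The HOXA4 start, whose promoter is printed above, had 5.51 and 4.09 CPM in cisplatin-resistant cells, 0.247 and 1.505 in dual-resistant cells, 1.58 and 1.35 in paclitaxel-resistant and 1.30 and 2.57 in control libraries. The cisplatin-resistant libraries were the highest, at 1.16 from control (SE 0.43, adjusted p = 0.0276), but DESeq2 gave an adjusted p of 0.0645, and the call was lost without control library 1 (0.77, adjusted p = 0.286) and without cisplatin-resistant library 1 (0.97, adjusted p = 0.213) or 2 (adjusted p = 0.0595). The HOXA10 start, in the gene of uterine receptivity, had 8.13 and 10.6 CPM in paclitaxel-resistant libraries, 4.82 and 4.30 in dual-resistant libraries, 3.71 and 3.16 in cisplatin-resistant and 2.86 and 5.28 in control libraries. The paclitaxel-resistant libraries were the highest, at 1.15 from control (SE 0.29, adjusted p = 0.00141). This was 0.76 (adjusted p = 0.134) without control library 1, 0.97 (adjusted p = 0.0692) without paclitaxel-resistant library 2 and 0.61 (adjusted p = 0.155) after the regional subtraction, the HOXA flanks having a median of 0.37 in paclitaxel-resistant cells.

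Of the 2 peaks at MIR196B, beside HOXA10, the strongest was not called (-0.74, -0.15 and -0.42 in dual-, cisplatin- and paclitaxel-resistant cells), and the other was lower in cisplatin-resistant cells. The peak at MIR10A in HOXB was not called (-0.85, -0.19 and -0.09 in the same order). MIR10B and MIR196A1 had no peak.

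By gene, 34 of the 38 genes had a start peak, 16 by a RefSeq start and 18 by their strongest peak, 31 distinct peaks in all. The 18 were HOXA5, HOXB2 to HOXB9, HOXB13, HOXC6, HOXC8 to HOXC13 and HOXD9, and their peaks need not lie at the start. HOXA2 and HOXD4 had no peak, and HOXA6 and HOXA7 overlapped 1 peak each but had none at the RefSeq start. In dual-resistant cells 2 of the 34 were higher (HOXD8 and HOXD10) and 13 lower, in cisplatin-resistant cells 1 higher (HOXA4) and 14 lower, and in paclitaxel-resistant cells 1 higher (HOXA10) and 3 lower (HOXC13, HOXD10 and HOXD13). Among all gene start peaks 4.76% were higher and 15.1% lower in dual-resistant cells, 10.9% and 29.0% in cisplatin-resistant and 13.1% and 9.89% in paclitaxel-resistant cells. The 14 lower in cisplatin-resistant cells were HOXA9, HOXA11, HOXC4, HOXC5, HOXC6, HOXC9, HOXC11, HOXC13, HOXD3, HOXD9, HOXD10, HOXD11, HOXD12 and HOXD13, none of them in HOXB. All HOXB genes but HOXB1 were read at their strongest peak, however. Another HOXB13 peak, at chr17:48728454-48729454 over the end of its span farther from HOXB9, was lower in cisplatin-resistant cells (limma, -1.57, adjusted p = 0.000554). HOXC4, HOXC5 and HOXC6 share 1 start peak, and HOXB7 and HOXB8 share another.

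Between the resistant lines, which the 3 control comparisons do not test, dual-resistant cells had 23 of 28 HOXD peaks higher and 0 lower than cisplatin-resistant cells, and 21 higher and 0 lower than paclitaxel-resistant cells. Over all 135 HOX peaks, 40 were higher and 18 lower than in cisplatin-resistant cells (21.9% and 19.9% of all peaks) and 23 higher and 17 lower than in paclitaxel-resistant cells (14.9% and 7.44% of all peaks). The second split depends on scaling. It was 14 higher and 33 lower with median-ratio scaling, 15 and 34 with edgeR and 12 and 27 with DESeq2. With quantile scaling it was 13 and 23, and after the regional subtraction 9 and 20. All called peaks moved the same way: 66.7% were higher as deposited, 42.1% with median-ratio scaling, 39.7% with edgeR and 36.0% with DESeq2. The share was 50.5% with quantile scaling and 40.7% after the regional subtraction. The first was 35 and 25 with median-ratio scaling and 34 and 24 with edgeR. Of all peaks called in that comparison, 52.5% were higher as deposited, 40.1% with median-ratio scaling and 40.8% with edgeR. Paclitaxel-resistant cells had 35 peaks higher and 10 lower than cisplatin-resistant cells (15.3% and 23.4% of all peaks), 19 of the 35 in HOXC. With quantile scaling the split was 53 and 5, and the higher share of all called peaks was 51.3%, against 39.5% as deposited. Leaving out 1 library moved several of these counts, and calls over all tested peaks fell too when it came from a line compared. In dual- against cisplatin-resistant cells the higher count was 26 without dual-resistant library 2, and the lower count was 10 without dual-resistant library 1 and 11 without dual-resistant library 2 or cisplatin-resistant library 2. In dual- against paclitaxel-resistant cells the higher count was 15 and 14 without dual-resistant libraries 1 and 2, and the lower count was 9 without dual-resistant library 1 and 6 and 10 without paclitaxel-resistant libraries 1 and 2. In paclitaxel- against cisplatin-resistant cells there were 22 higher and 5 lower without paclitaxel-resistant library 1, and 6 lower without either cisplatin-resistant library.

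The cluster sums differed between the lines as well. HOXD in dual-resistant cells was higher than in cisplatin-resistant (1.43, adjusted p = 1.68e-21) and paclitaxel-resistant cells (1.28, adjusted p = 6.21e-20). Among the 15720 windows and clusters, 37.5% were higher and 31.0% lower in dual- than in cisplatin-resistant cells, 39.7% and 18.4% in dual- than in paclitaxel-resistant cells, and 31.0% and 39.0% in paclitaxel- than in cisplatin-resistant cells. HOXA in dual- and cisplatin-resistant cells did not pass the test (0.01, adjusted p = 0.916), nor did HOXB in paclitaxel- and cisplatin-resistant cells (0.08, adjusted p = 0.0979). All 17 peaks from HOXD11 to HOXD8 were higher in dual-resistant than in cisplatin-resistant cells, with log2 differences of 1.19 to 2.65, and 16 of 17 were higher than in paclitaxel-resistant cells. The HOXD flanks were higher in the same comparisons, with 66 of 91 peaks higher and 10 lower than in cisplatin-resistant cells, and 50 higher and 1 lower than in paclitaxel-resistant cells.

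Genes that work with or on the HOX clusters were read at their own start peaks. Their counts, given as higher and lower than control, stand against shares of all gene start peaks of 4.76% and 15.1% in dual-resistant cells, 10.9% and 29.0% in cisplatin-resistant and 13.1% and 9.89% in paclitaxel-resistant cells. Of the 9 TALE cofactors, which bind DNA together with HOX proteins, 1 was higher and 1 lower in dual-resistant cells, 1 and 2 in cisplatin-resistant and 1 and 1 in paclitaxel-resistant cells. MEIS3 was lower in all 3, with 7.42 and 7.74 CPM in dual-resistant cells, 6.53 and 5.38 in cisplatin-resistant cells, 7.16 and 6.97 in paclitaxel-resistant and 24.3 and 22.4 in control libraries (-1.56, -1.89 and -1.66; adjusted p = 2.68e-09, 1.25e-12 and 2.15e-10). MEIS1 was higher in dual-resistant (0.42, adjusted p = 0.0140) and cisplatin-resistant cells (0.68, adjusted p = 5.74e-06).

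Of the 10 PRC2 genes, whose complex writes the silencing mark H3K27me3, 0 were higher and 1 lower in dual-resistant cells, 1 and 3 in cisplatin-resistant and 1 and 0 in paclitaxel-resistant cells. SUZ12, a core subunit, was lower in dual-resistant (-0.50, adjusted p = 0.00276) and cisplatin-resistant cells (-0.64, adjusted p = 2.35e-05), and JARID2 was higher in paclitaxel-resistant cells (0.70, adjusted p = 1.21e-07). Of the 12 PRC1 genes, 0 and 1, 1 and 3, and 2 and 2 were higher and lower in the same order of lines. BMI1 was lower in all 3 (-0.58, -0.53 and -1.05; adjusted p = 0.0288, 0.0234 and 8.84e-06). Of the 11 activators of HOX chromatin, 0 and 3, 1 and 5, and 1 and 2 were higher and lower. KMT2A, the MLL methyltransferase, had 33.6 and 33.3 CPM in dual-resistant cells, 20.1 and 18.8 in cisplatin-resistant cells, 31.3 and 35.2 in paclitaxel-resistant and 47.8 and 43.6 in control libraries (-0.44, -1.21 and -0.45; adjusted p = 0.00743, 4.42e-14 and 0.00454).

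Of the 11 upstream regulators, 10 had a start peak, and 1 was higher and 1 lower in dual-resistant cells, 1 and 2 in cisplatin-resistant and 3 and 2 in paclitaxel-resistant cells. RARB, a retinoic acid receptor, had 32.8 and 28.5 CPM in dual-resistant cells, 9.12 and 7.37 in cisplatin-resistant cells, 71.0 and 66.9 in paclitaxel-resistant and 6.89 and 6.44 in control libraries. It was higher in dual-resistant (2.12, adjusted p = 1.07e-21) and paclitaxel-resistant cells (3.28, adjusted p = 2.32e-35) and not called in cisplatin-resistant cells (0.28, adjusted p = 0.167). RXRB was lower in dual-resistant (-0.35, adjusted p = 0.00573) and higher in paclitaxel-resistant cells (0.39, adjusted p = 0.00150), and ALDH1A2, which makes retinoic acid, was lower in cisplatin-resistant (-0.77, adjusted p = 0.0225) and paclitaxel-resistant cells (-1.30, adjusted p = 0.000163). Of the genes beside the clusters, 0 of 4 at HOXC were called in any of the 3 comparisons. At HOXD, 0 were higher and 2 lower of 4 in dual-resistant, 0 and 3 in cisplatin-resistant and 0 and 1 in paclitaxel-resistant cells. At HOXA, 2 of 3 had a start peak, with 0 higher and 0 lower in dual-resistant, 0 and 1 in cisplatin-resistant and 1 and 0 in paclitaxel-resistant cells, and at HOXB 0 and 2, 1 and 0, and 1 and 1 of 7 were called. Medians of the cofactor, Polycomb, activator and upstream lists were between -0.30 and 0.09 in the 3 comparisons, against -0.14, -0.19 and 0.01 over all gene start peaks in dual-, cisplatin- and paclitaxel-resistant cells. ATAC-seq reads open chromatin and not RNA, so no value here is an expression level.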

How the data were processed

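ATAC-seq of 8 A2780 libraries was analysed from 1 deposited matrix of CPM values over 159451 consensus peaks of 1001 bp (hg38). Per the submitters' processing notes, Bowtie2, Picard and MACS2 were used; versions, settings and how peaks were merged: not given in the sources used here. Every library's peaks sum to a common total, so a change shared by all peaks cannot be seen. Whole reads were recovered from the CPM steps within 0.01 read for 100% of values.

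The filter asked for 1 CPM or more in 2 or more libraries; the 158698 peaks that passed were taken as log2(CPM + 0.5) and fitted with limma 3.58.1 (R 4.3.3), variance trend, all 4 groups in 1 fit, Benjamini-Hochberg over all tested peaks, called at an adjusted p under 0.05. Residual degrees of freedom were 4 and prior ones 98.5, so an SE comes mostly from the trend over all peaks. Windows of 100 kb and the 4 clusters were fitted likewise. Log2 differences understate changes of weak peaks. The fit was tested on simulated data with known folds. Large changes were mostly recovered and many smaller ones missed, so a peak not called is not shown to be unchanged. The pass mark for recovering smaller changes was dropped after the first simulation missed it, and their recovery was only recorded.

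Levels in the text are single-library CPM, libraries 1 and 2. Gene spans and starts came from RefSeq (GRCh38.p14, the hg38 build). A start peak is the strongest peak within 1 kb of a RefSeq start where given, otherwise the strongest of the gene. Named peaks were, per comparison, the 4 largest called start peaks per direction and the largest called peak per cluster and direction, with non-overlapping libraries and at least 3 CPM in the higher group, the 3 strongest start peaks, and per other list up to 3 called genes by smallest p. HOXD1, HOTAIR, the microRNA peaks, the other HOXB3 and HOXB4 peak and EVX2 and MTX2 were added after their values were seen. The members and lists were chosen with earlier results of these data known. Alternatives included edgeR 4.0.16 and DESeq2 1.42.0 on the recovered reads. No column was left unmatched. Some items are not reported here.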

Additional observations from a re-analysis of the deposited data

Results flagged for a closer look

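The summed accessibility of a cluster differed between resistant lines by a direct test (limma, adjusted over all windows) in 10 cases. Dual-resistant minus cisplatin-resistant was 1.43 for HOXD (adjusted p = 1.68e-21), 0.34 for HOXC (adjusted p = 5.48e-10) and -0.27 for HOXB (adjusted p = 2.79e-06). Dual-resistant minus paclitaxel-resistant was 1.28 for HOXD (adjusted p = 6.21e-20), -0.58 for HOXA (adjusted p = 7.00e-07), -0.36 for HOXB (adjusted p = 2.97e-08) and -0.17 for HOXC (adjusted p = 0.000173). Paclitaxel-resistant minus cisplatin-resistant was 0.59 for HOXA (adjusted p = 2.28e-07), 0.52 for HOXC (adjusted p = 1.17e-14) and 0.15 for HOXD (adjusted p = 0.0313). Dual-resistant HOXD thus differed from both other resistant lines in the direction opposite to theirs from control.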

How the results depend on the processing

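Counts given are HOX peaks called. With DESeq2 there were 9 higher and 10 lower in dual-resistant against control, 20 lower in cisplatin-resistant, 2 lower in paclitaxel-resistant, 26 higher in dual- against cisplatin-resistant, 12 higher and 27 lower in dual- against paclitaxel-resistant and 5 lower in paclitaxel- against cisplatin-resistant cells. With edgeR there were 3 lower in paclitaxel-resistant cells and 15 higher and 34 lower in dual- against paclitaxel-resistant cells. With the regional median subtracted there were 8 higher in dual-resistant cells, 11 lower in paclitaxel-resistant cells, 11 lower in dual- against cisplatin-resistant and 9 higher in dual- against paclitaxel-resistant cells. With median-ratio scaling there were 14 higher and 3 lower in paclitaxel-resistant cells, and 14 higher and 33 lower in dual- against paclitaxel-resistant cells. With quantile scaling there were 13 higher in dual- against paclitaxel-resistant cells, and 53 higher and 5 lower in paclitaxel- against cisplatin-resistant cells. A pseudocount of 0.1 gave 1 higher in cisplatin-resistant cells, and gene spans extended by 5 kb gave 10 lower in paclitaxel-resistant cells. Median-ratio scaling moved the median of all peaks in paclitaxel-resistant cells to 0.00, against -0.14 as deposited. The counts over all tested peaks moved too. DESeq2 called 6659 higher and 7197 lower in dual-resistant against control, in place of 12864 and 8561. In dual- against paclitaxel-resistant cells the higher share of all called peaks was 66.7% as deposited, 42.1% with median-ratio scaling and 36.0% with DESeq2. The cause of these changes was not tested.

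Cluster sums, as log2 differences from control, changed as follows. The dual-resistant HOXC sum was -0.00476 with quantile scaling and the HOXD sum 0.0361 with the regional median subtracted. The cisplatin-resistant HOXB sum was -0.0359 with quantile scaling, 0.00450 with median-ratio scaling, -0.0693 with edgeR and -0.0843 with DESeq2. The paclitaxel-resistant HOXA sum was 0.224 with median-ratio scaling and -0.484 with the regional median subtracted. The HOXB sum there was 0.147, 0.163, 0.0748 and 0.0707 with median-ratio scaling, regional subtraction, edgeR and DESeq2, and the HOXC sum -0.120, 0.173, 0.113 and 0.101 with quantile scaling, median-ratio scaling, regional subtraction and edgeR.

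Leaving out 1 library at a time gave 8 to 19 peaks higher and 5 to 22 lower in dual-resistant, 1 to 3 and 25 to 37 in cisplatin-resistant and 4 to 11 and 2 to 7 in paclitaxel-resistant cells against control. Between lines it gave 26 to 41 higher and 10 to 18 lower (dual- against cisplatin-resistant), 14 to 25 and 6 to 19 (dual- against paclitaxel-resistant) and 22 to 35 and 5 to 10 (paclitaxel- against cisplatin-resistant). The sums ranged from -0.135 to -0.0822 for cisplatin-resistant HOXB, from -0.0703 (without control library 1) to 0.177 for paclitaxel-resistant HOXA and from -0.0210 (without paclitaxel-resistant library 1) to 0.0259 for paclitaxel-resistant HOXC. The paclitaxel-resistant HOXC sum was also below 0, at -0.00829, without control library 2. Deviations of same-numbered libraries correlated by -0.001 to 0.003 over all tested peaks. No pairing by number was seen, though counting noise in weak peaks could hide one. A fit with the replicate number as a block gave 10 higher and 7 lower in paclitaxel-resistant cells, and 19 and 21 in dual-resistant and 3 and 37 in cisplatin-resistant cells. Of the alternatives' values for named peaks, 453 kept their call, 59 lost it and 0 reversed.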
